A study of Mus musculus with 4 samples.

Results

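The genes for axon guidance ligands and their receptors were examined in cultured hair follicle mesenchymal cells of the mouse. Members were the genes whose symbols name a semaphorin, plexin, neuropilin, ephrin, Eph receptor, Slit, Robo, netrin or Unc5 receptor and whose mean raw count over 4 libraries was at least 10. The symbols matched 72 genes, of which 60 reached that minimum, out of 16734 genes that did so among 51826 in the count table. They comprised 35 ligands (7 secreted semaphorins, 13 membrane-bound semaphorins, 5 ephrin-A, 3 ephrin-B, 2 Slit and 5 netrin genes) and 25 receptors (9 plexins, 2 neuropilins, 5 EphA, 4 EphB, 2 Robo and 3 Unc5 genes). Of the 12 matched genes under the minimum, Epha6, Epha8, Robo4 and the noncoding Plxna4os1, Plxna4os2 and Plxna4os3 had 0 counts in every library, and Epha5, Epha10, Ephb1, Robo3, Slit1 and Unc5d had a few. Just inside the minimum were Plxnb3, with a mean of 14.0 counts, and Sema4a, with 15.8, and just outside were Unc5d, with 9.5, and Ephb1, with 9.0.

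The libraries came from dermal papilla cells (DPCs), the mesenchymal cells at the base of the hair bulb, and dermal sheath cells (DSCs), which line the outside of the follicle. Per the study's methods, both were grown from whisker follicles, the donor mice being EGFP-transgenic and between 5 and 6 weeks of age. The labels give all 4 groups as WT and as differing only by cell type and by passage, which was 3 in the low-passage and 9 in the high-passage cells. Each group was 1 library, and how many mice or cultures it held was not given in the sources used here. No difference between groups therefore has a replicate check. Anything else that differed between the cultures at passage 3 and at passage 9 cannot be told apart from passage.

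Guidance cues steer growing axons and migrating cells by binding receptors that act on the cytoskeleton. Secreted class 3 semaphorins bind neuropilins, which signal with plexins, while membrane-bound semaphorins bind plexins directly. Slits bind Robo receptors, netrins bind Dcc, neogenin and Unc5 receptors, and ephrins on a cell bind Eph receptor tyrosine kinases on its neighbour.

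The promoters of 4 members are shown because their genes moved the same way with passage in both cell types. They were picked after the values were seen, as the members with a mean count of at least 100 and the largest values of the smaller of the changes in DPCs and DSCs, 2 higher and 2 lower. A window was passed over where it shared bases with an exon of a protein-coding transcript or lay more than 50 bases from the deposited gene start. Each is the 250 bases before the RefSeq start on build GRCm38.p6, written 5′ to 3′ on the strand of the gene. Capitals mark matches on either strand to any of 5 motifs: the GC box GGGCGG, the AP-1 site TGANTCA, the TCF/LEF site CTTTGAT, the TATA box TATAAA and the CRE half-site TGACG.
Sema5a, chr15:32244563-32244812, plus strand: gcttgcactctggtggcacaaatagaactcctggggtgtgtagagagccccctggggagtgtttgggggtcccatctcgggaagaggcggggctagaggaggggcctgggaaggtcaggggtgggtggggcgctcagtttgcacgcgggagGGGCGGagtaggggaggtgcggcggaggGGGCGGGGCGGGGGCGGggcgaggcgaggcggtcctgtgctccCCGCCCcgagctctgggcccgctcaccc
Sema6b, chr17:56140344-56140593, minus strand: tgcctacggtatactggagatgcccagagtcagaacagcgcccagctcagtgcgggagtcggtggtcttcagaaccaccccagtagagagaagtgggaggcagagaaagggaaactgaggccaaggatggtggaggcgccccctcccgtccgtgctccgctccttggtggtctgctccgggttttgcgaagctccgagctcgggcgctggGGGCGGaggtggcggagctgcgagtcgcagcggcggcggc
Epha3, chr16:63864176-63864425, minus strand: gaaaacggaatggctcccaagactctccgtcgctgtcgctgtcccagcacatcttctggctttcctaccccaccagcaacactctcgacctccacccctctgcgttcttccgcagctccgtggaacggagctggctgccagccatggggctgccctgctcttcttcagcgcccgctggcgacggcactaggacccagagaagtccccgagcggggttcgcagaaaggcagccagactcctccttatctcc
Ephb2, chr4:136836013-136836262, minus strand: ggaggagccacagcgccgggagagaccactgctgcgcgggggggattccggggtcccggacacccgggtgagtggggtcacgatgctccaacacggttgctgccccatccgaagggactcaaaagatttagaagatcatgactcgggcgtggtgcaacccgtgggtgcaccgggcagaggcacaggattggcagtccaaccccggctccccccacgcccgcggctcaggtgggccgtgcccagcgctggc
The Sema5a window held 5 GC boxes, a pair of which overlapped, and the Sema6b window held 1. The Epha3 and Ephb2 windows held none of the 5 motifs, which says only that these letters are not in these bases. Over all 32851 RefSeq promoters of the same length, the share with a match was 32.7% for the GC box, 6.75% for the AP-1 site, 3.21% for the TCF/LEF site, 12.4% for the TATA box and 17.8% for the CRE half-site. The windows held 17, 20, 16 and 20 CG dinucleotides in the order shown, against a median of 6 and an upper quartile of 16 over all promoters.

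Total counts lay between 34981284 and 47604059 per library, and 55 of the 60 members had at least 10 counts in every library. The other 5 were Sema4a, Sema4f, Ntn5, Ntng1 and Plxnb3, of which Ntn5, Plxnb3 and Sema4f were at or under 3 counts in a library. Even counts were in excess (2 counts for 1339 genes but 3 for only 583 in the low-passage DPC library), so counting intervals were also computed with halved counts. Below, 4 values in a row give the DPCs at passage 3 and at passage 9 and then the DSCs at passage 3 and at passage 9. Fold changes are log2 ratios of counts scaled to library size (CPM) and are called from 4-fold, an absolute log2 value of 2. The interval beside them is a 95% exact Clopper-Pearson interval for counting error, which compares 2 libraries and not 2 conditions.

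Several marker lists were read in the same libraries. Of 8 fibroblast markers 3 fell in DPCs and 2 rose in DSCs, with summed levels of 17556, 6489, 25992 and 23466 CPM. Lum, counted both as a fall and as a rise, had 8, 0, 0 and 109 counts, so its fall in DPCs rests on 8 counts. Of 7 dermal papilla markers tested out of 10, Lef1 and Bmp4 fell in DPCs and Crabp1 rose in DSCs, with summed levels of 937, 595, 656 and 985 CPM. Crabp1 alone gave 609, 406, 40.0 and 448 CPM of these sums. Sox2 had 1677, 1491, 269 and 178 counts, higher in DPCs at both passages. Ncam1, with 3642, 1673, 11755 and 15584 counts, and Bmp4, with 2104, 137, 5931 and 5724, were higher in DSCs at both. By CPM, Lef1, Vcan, Crabp1 and Alpl were higher in DPCs at a single passage. Wif1 had 0 counts throughout, Corin had 0 at passage 3 in both cell types, Prom1 had at most 7 and Alpl had between 6 and 23. Of 5 dermal sheath markers Myh11 fell in DPCs, and the summed levels were 10285, 3022, 7962 and 6586 CPM, higher in DPCs at passage 3 and higher in DSCs at passage 9. Acta2 among them had 262118, 67135, 217199 and 197315 counts. Of 8 Schwann cell markers tested out of 10, 6 fell in DPCs and 5 in DSCs, with summed levels of 15.8, 6.35, 38.3 and 10.9 CPM, and Sox10, Cdh19, Ngfr and Foxd3 were at 0 in both high-passage libraries. Of 6 endothelial markers tested out of 10, 3 fell in each cell type and 2 rose in DPCs (summed 19.9, 13.2, 35.7 and 14.9 CPM; Cdh5 and Cldn5 at 0 at high passage). Of 6 immune markers tested out of 8, 3 fell in DPCs and 1 in DSCs (summed 28.9, 10.5, 37.9 and 16.1 CPM; Cd3e at 0 in every library). Of 10 proliferation genes, 8 fell in DPCs and 0 in DSCs, with summed levels of 800, 170, 685 and 272 CPM. Of 9 keratinocyte markers 2 were tested and none passed 4-fold (summed 2.07, 1.31, 1.79 and 2.04 CPM, mostly Krt10; Krt5 and Krt14 at 0 in every library). Of 8 neuronal markers Tubb3 alone was tested and fell in DPCs (summed 13.6, 1.48, 18.4 and 10.7 CPM; Rbfox3 and Snap25 at 0 in every library). Acta1 alone was tested of 6 skeletal muscle markers and fell in DPCs, with 1495, 13, 1837 and 1083 counts. Pmel alone was tested of 6 melanocyte markers and did not pass 4-fold. Xist had at most 12 counts. The part of these other cells, or of proliferation, in the changes below was not tested. In bulk RNA, fewer cells of a type and less RNA per cell cannot be told apart.

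Slit3, a secreted Slit, was the most abundant member in every library on the length-scaled scale. Its FPKM was 241, 285, 123 and 105, higher in both DPC libraries than in either DSC library. Nrp2, a neuropilin that binds class 3 semaphorins, followed with 72.3, 77.9, 101 and 94.4 FPKM, and the plexin Plxnb2 had 74.5, 74.3, 75.3 and 78.1 FPKM. The plexin Plxna1 was next by mean FPKM. By mean FPKM the next members were Ntn4, a netrin of basement membranes, then Sema3b, Epha3 and Nrp1. Of the 4 most abundant members 3 barely differed: Plxnb2 differed with passage by 0.02 in DPCs and 0.08 in DSCs on the log2 scale, Plxna1 by 0.05 and 0.03, and Nrp2 by 0.11 and -0.06. Among members with a mean count of at least 100, these 3 together with Plxna3 and Sema3e had the smallest changes.

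**Figure D1:**
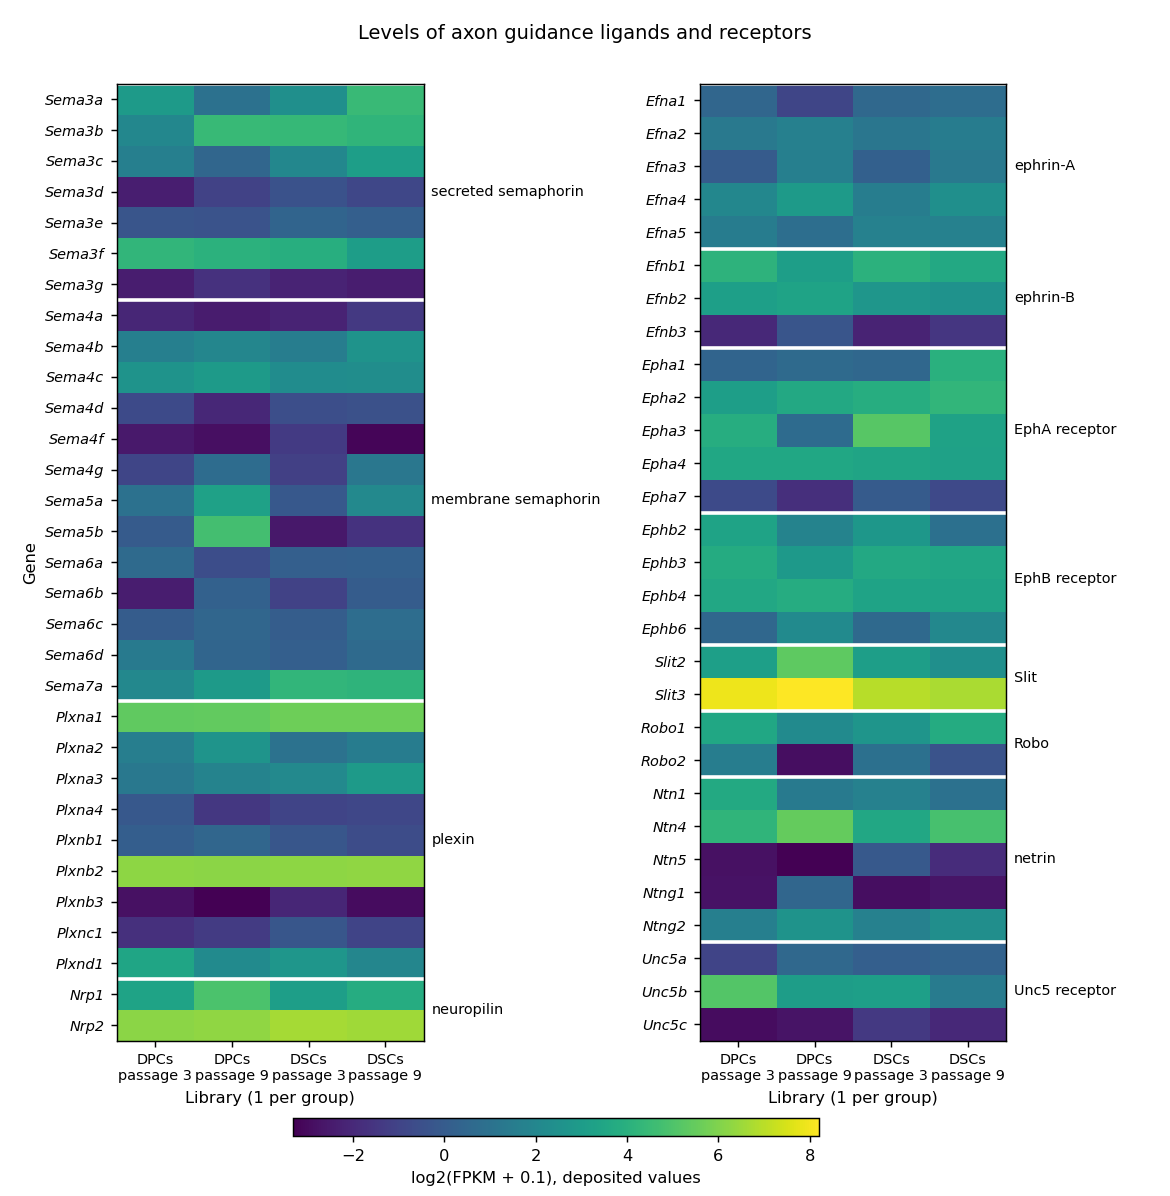
Deposited FPKM of the 60 members as log2(FPKM + 0.1), with genes in rows grouped by family and the 4 libraries in columns. Slit3, Nrp2, Plxnb2 and Plxna1 are bright in every column, whereas Sema5b is bright only in high-passage DPCs, at 26.6 FPKM.

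Summed over members, the Slit genes had the highest FPKM of all families in both DPC libraries and the plexins in both DSC libraries. The Slit genes had 250, 325, 131 and 110, of which Slit3 made up 87.7% or more in each library. The plexins had 134, 133, 140 and 145 and the neuropilins 82.6, 108, 109 and 108. Membrane-bound semaphorins had 22.01, 61.3, 32.1 and 41.8 and secreted semaphorins 34.3, 42.7, 46.5 and 59.6, higher at high passage in each cell type. The Unc5 receptors had 34.6, 9.79, 10.3 and 3.97, lower at high passage in each, and the netrins 34.5, 54.2, 19.3 and 36.1, higher in each.

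**Figure D2:**
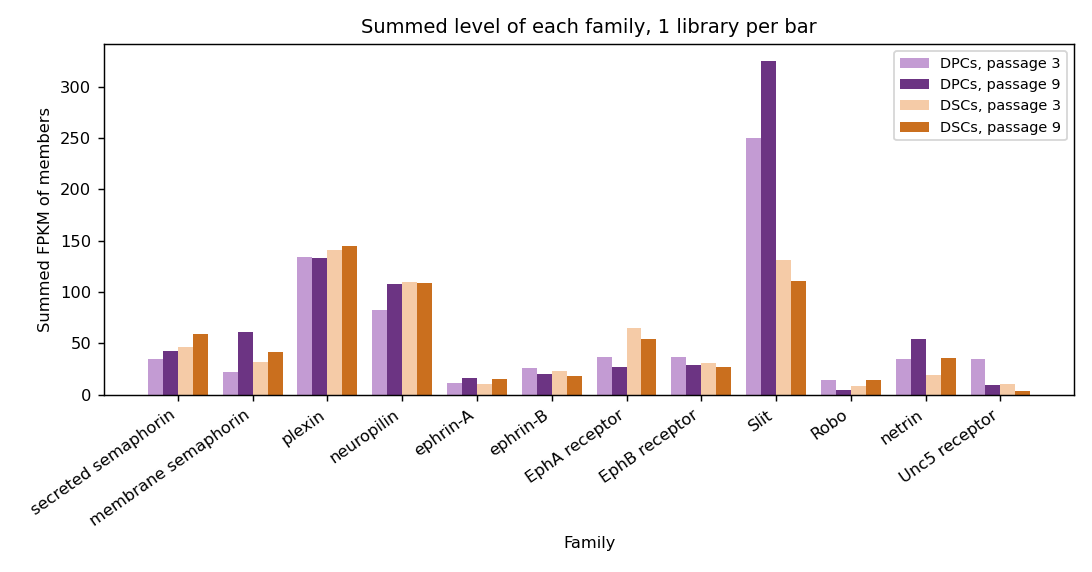
FPKM summed over the members of each of 12 families (y axis), with a bar for each of the 4 libraries. The Slit bars are the tallest in DPCs, at 250 and 325, and stand below the plexin bars in DSCs, at 131 and 110, while the plexin bars lie between 133 and 145 in all libraries.

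The study asked how cells at high passage differ from those at low passage, and the members were compared accordingly. In DPCs 6 of the 60 members rose 4-fold or more (10.0%, against 5.58% of all genes tested) and 6 fell (10.0%, against 4.36%), which made 12 in all (20.0%, against 9.94%). In DSCs 4 rose (6.67%, against 2.67%) and 2 fell (3.33%, against 1.16%), 6 in all (10.0%, against 3.82%). Ligands, which were 35 of the 60 members, made up all 6 that rose in DPCs, and receptors 5 of the 6 that fell there. The receptor Plxnb3 is counted among those 6, but it went from 10 to 0 counts, a fall of at least 3.25-fold. With the deposited FPKM, 4 members fell in DPCs, namely Epha3, Ntn1, Robo2 and Unc5b. In DSCs 3 of those that rose and both that fell were ligands. The members that fell in DSCs were Ntn5 and Sema4f, both at low counts, and none fell there with a minimum mean count of 100 or with the deposited FPKM. Both reached the minimum only through their counts in low-passage DSCs, 61 and 49, so the share that fell there depends on the minimum. Their median change was 0.14 in DPCs, beside 0.03 over all genes, and 0.08 in DSCs, beside 0.00, on the log2 scale. The median absolute change was 1.11 in DPCs and 0.71 in DSCs, beside 0.62 and 0.34 over all genes.

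**Figure D3:**
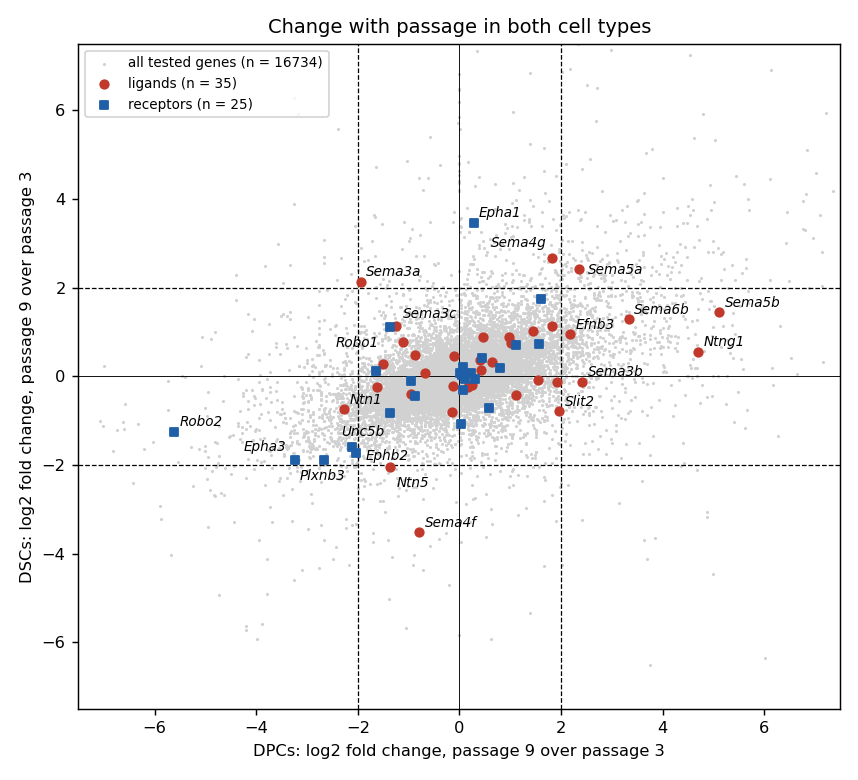
Log2 fold change from passage 3 to passage 9 in DPCs (x axis) and in DSCs (y axis) for the 35 ligands (circles), the 25 receptors (squares) and all 16734 genes tested (grey; fitted values, also for genes at 0 counts), of which 9 lie outside the axes. Dashed lines mark 4-fold, and Sema5a is the only member past them in the same direction on both axes.

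Sema5a, a transmembrane semaphorin with thrombospondin repeats (chromosome 15, 32244813 to 32696341), was the only member that rose 4-fold in both cell types, which 1.27% of all genes did, and no member fell 4-fold in both, which 0.508% of all genes did (1.78% for either direction). Its counts were 801, 3999, 375 and 2444, so both high-passage libraries stood above both low-passage ones. The log2 fold change was 2.35 (2.25 to 2.47) in DPCs and 2.43 (2.28 to 2.60) in DSCs. Its promoter is among those shown above, with 5 GC boxes. Sema5b, its close relative on chromosome 16 (35541145 to 35664732), had 81, 2797, 10 and 37 counts. High-passage DPCs stood far above the other libraries, with a change of 5.11 (4.83 to 5.48) in DPCs, while DSCs gave 1.45 (0.59 to 2.80) at low counts. By FPKM, Sema5b went from 0.889 to 26.6 in DPCs and became the leading membrane-bound semaphorin there, in place of Sema4c.

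Among the other membrane-bound semaphorins, Sema6b had 15, 164, 64 and 191 counts. It rose in DPCs by 3.33 (2.72 to 4.36) and gave 1.29 (0.90 to 1.74) in DSCs. Sema4g, a class 4 semaphorin, had 81, 285, 71 and 554 counts and rose in DSCs by 2.67 (2.34 to 3.08), with 1.83 (1.49 to 2.23) in DPCs. Both genes were higher in each high-passage library than in its low-passage partner. Sema4f had only 12, 6, 49 and 3 counts, and its fall of 3.52 on the log2 scale in DSCs rests on 3 counts at high passage, with an interval of -6.62 to -2.66. Sema7a, the semaphorin anchored by a lipid in the membrane, had 349, 992, 2721 and 3094 counts and was the leading membrane-bound semaphorin of DSCs at both passages.

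Several of the secreted semaphorins gave unlike values in DPCs and DSCs. Sema3a, the class 3 semaphorin that acts through Nrp1 (chromosome 5, 13125414 to 13602565), had 1132, 286, 882 and 4670 counts. High-passage DPCs were the lowest and high-passage DSCs the highest library. It rose in DSCs by 2.14 (2.04 to 2.24), whereas DPCs gave -1.94 (-2.14 to -1.76), just short of 4-fold. Sema3c had 623, 255, 920 and 2451 counts, again lowest in high-passage DPCs and highest in high-passage DSCs, with -1.25 (-1.47 to -1.04) and 1.15 (1.04 to 1.26). Sema3b had 407, 2130, 2151 and 2381 counts. The low-passage DPCs stood apart from the other libraries, which lay close to each other, and the gene rose in DPCs by 2.42 (2.27 to 2.58) with -0.12 (-0.20 to -0.03) in DSCs. Sema3f, 72270 bases from Sema3b on chromosome 9, gave -0.15 in DPCs and -0.80 in DSCs, so the neighbours did not move together. Among the secreted semaphorins by FPKM, the leading gene was Sema3f and then Sema3b in DPCs, and Sema3b and then Sema3a in DSCs.

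Their receptors lay mostly short of 4-fold. Nrp1, the neuropilin that binds Sema3a, had 1468, 4223, 1343 and 2698 counts, with 1.56 (1.47 to 1.65) in DPCs and 0.74 (0.65 to 0.84) in DSCs. Across the 9 plexins the median was 0.05 for DPCs and 0.03 for DSCs on the log2 scale. Plxnd1, the plexin that binds Sema3e, had 2735, 1027, 1788 and 1207 counts, lower at high passage in each cell type but short of 4-fold. Plxnb3 was the sole plexin past 4-fold, at 10, 0, 36 and 10 counts. With 0 counts in high-passage DPCs its fall there can be given only as at least 3.25-fold, a bound that is itself below the 4-fold threshold.

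Of the Slit and Robo genes, Robo2 fell most. This receptor (chromosome 16, 73892306 to 74411825) had 594, 10, 400 and 201 counts, and high-passage DPCs stood far below the rest. It fell by 5.62 on the log2 scale in DPCs (-6.92 to -4.97) and gave -1.25 (-1.51 to -1.01) in DSCs. Robo1, its neighbour 846210 bases away, had 3516, 1333, 2118 and 5516 counts. It was lowest in high-passage DPCs and highest in high-passage DSCs, with -1.36 (-1.45 to -1.27) and 1.12 (1.04 to 1.19). Summed over both, the Robo genes had 14.5, 4.53, 8.23 and 14.3 FPKM. The ligand Slit2 had 2942, 11228, 3118 and 2170 counts, high in high-passage DPCs alone, with 1.97 (1.91 to 2.03) in DPCs and -0.79 (-0.87 to -0.71) in DSCs. Slit3 had 50029, 58021, 27859 and 29329 counts, with changes of 0.25 and -0.19.

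The netrins split in the same cells. Ntng1, a netrin-G anchored by a lipid in the membrane that binds neither Dcc nor Unc5 receptors, had 8, 248, 9 and 17 counts. It rose in DPCs by 4.70 (3.99 to 6.22), from a low count, and gave 0.56 in DSCs, where the interval began at -0.59 and so spanned 0. Ntn1, a secreted netrin, had 2865, 580, 788 and 565 counts. Low-passage DPCs stood above the other libraries, and it fell by 2.26 on the log2 scale in DPCs (-2.40 to -2.14) with -0.74 (-0.90 to -0.59) in DSCs. Ntn4 had 1667, 4416, 1404 and 3420 counts, higher at high passage in both cell types, with 1.44 and 1.02. Its share of the summed netrin FPKM went from 54.2% to 82.0% in DPCs and from 61.8% to 80.0% in DSCs. Ntn5 had 3, 0, 61 and 16 counts. It fell in DSCs by 2.04 on the log2 scale (-3.09 to -1.38), and no fold is given in DPCs because both counts were at or under 3. Exons of Ntn5 share 23.4% of their bases with a gene on the other strand, and whether counting used the strand was not given in the sources used here. Such overlap came to 10.7% for Plxna1 and 6.0% for Epha1, and 11 members had some.

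Unc5b was the main Unc5 receptor. It had 7748, 1751, 2129 and 843 counts, lower at high passage in each cell type, and fell by 2.11 on the log2 scale in DPCs (-2.18 to -2.03), with -1.60 (-1.72 to -1.49) in DSCs. It held 98.7% of the summed Unc5 FPKM in low-passage DPCs and 67.5% in high-passage DSCs. Unc5c had 11, 11, 116 and 65 counts. Among the partner genes outside the families, the netrin receptor Dcc had 0 counts in every library, which allows up to 0.0836 CPM in the library with the highest such limit, while the netrin and RGM receptor Neo1 had 5895, 8797, 10072 and 9981 counts.

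Among ephrins and Eph receptors the ephrin-B gene Efnb3 rose in DPCs from low counts, with 19, 90, 18 and 44. The change was 2.17 (1.55 to 3.08), and in DSCs it was 0.95 (0.20 to 1.90). The main ephrin-B ligands, Efnb1 with 2246, 1129, 2376 and 2168 counts and Efnb2 with 1661, 1812, 1382 and 1403, stayed short of 4-fold. The ephrin-A genes Efna1, Efna3 and Efna4 lie in a row on chromosome 3, and Efna3 and Efna4 are 10424 bases apart. In DPCs Efna1 went from 76 to 25 counts, while Efna3 went from 71 to 250 and Efna4 from 252 to 486, so the neighbours did not share a direction there. In DSCs the log2 fold changes were 0.28, 1.15 and 0.89 in the same order. Efna3 and Efna4 exons share 14.1% and 10.5% of their bases with genes on the other strand.

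Epha3, a receptor for ephrin-A ligands (chromosome 16, 63543538 to 63864158), had 3290, 337, 9247 and 3024 counts. It fell by 3.24 on the log2 scale in DPCs (-3.42 to -3.09) and gave -1.88 (-1.94 to -1.82) in DSCs. Ephb2, a receptor for ephrin-B ligands, had 2474, 590, 1756 and 639 counts, lower at high passage in both cell types. It fell by 2.03 on the log2 scale in DPCs (-2.16 to -1.90), with -1.72 (-1.86 to -1.59) in DSCs. Epha1 went the other way in a single library. It had 135, 160, 183 and 2460 counts, rose in DSCs by 3.47 (3.27 to 3.71) and gave 0.28 (-0.06 to 0.62) in DPCs. Ephb6, an Eph receptor without kinase activity, had 201, 597, 187 and 756 counts, with 1.60 and 1.74. By FPKM the leading EphA gene was Epha3 at low passage and Epha2 at high passage in both cell types.

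**Figure D4:**
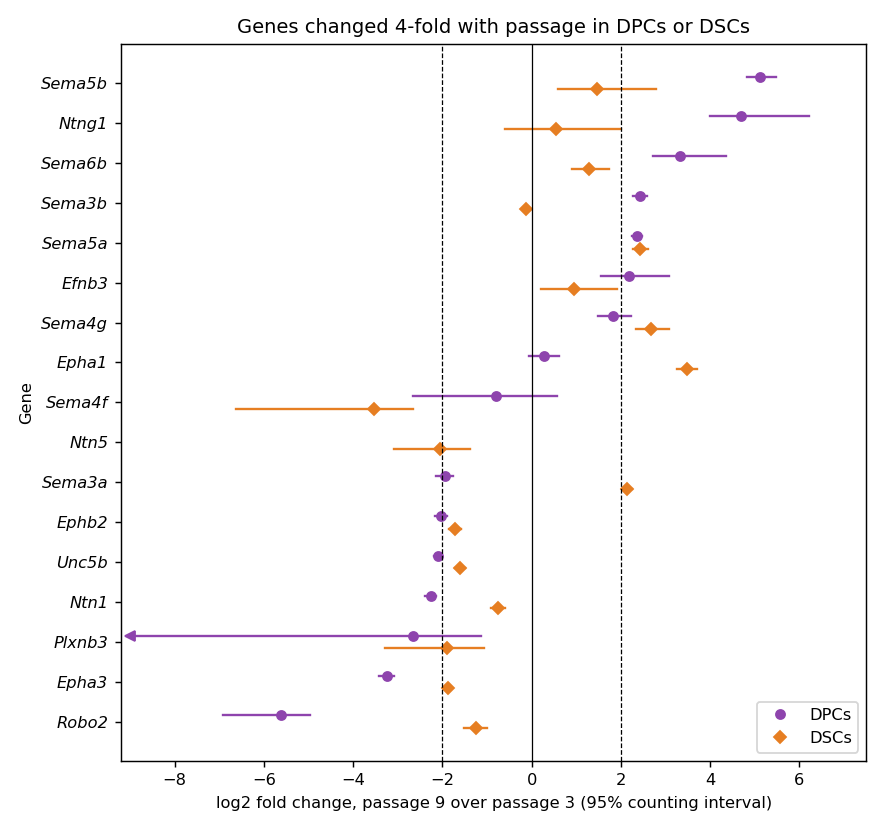
Log2 fold change with passage in DPCs and in DSCs for the members past 4-fold in either cell type, with bars for the 95% counting intervals and arrows where an interval is open because a count was 0. Ntn5 is not drawn for DPCs, Sema5a sits past 4-fold in both cell types, at 2.35 and 2.43, and Sema3a lies on opposite sides of 0.

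With halved counts, 17 of the 18 intervals of called changes still left out 0, the exception being Plxnb3 in DPCs. Passage was also tested with cell type as a covariate, by edgeR's quasi-likelihood test over all libraries, where the only residual degree of freedom is the difference between the responses of DPCs and DSCs. No member passed an adjusted p of 0.05, and no gene of all those tested did. The smallest Benjamini-Hochberg adjusted p of edgeR among members was 0.161, for Sema5a. At an unadjusted p under 0.05, edgeR gave 12 members higher (20.0%, against 9.07% of all genes) and 9 of 60 lower, where 7.79% of all genes were. DESeq2 on the same model gave 13 higher (21.7%, against 8.55%) and 7 lower (11.7%, against 8.28%) at that threshold. After adjustment DESeq2 called 6 members higher (Ephb6, Nrp1, Ntn4, Sema4g, Sema5a and Sema5b; 10.0%, against 3.03%) and 6 lower (Epha3, Ephb2, Ntn1, Plxnd1, Robo2 and Unc5b; 10.0%, against 2.73%).

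The responses of DPCs and DSCs were then set side by side. The change had the same sign in both for 39 of 60 members (65.0%, against 70.5% of all genes) and was larger in DPCs for 43 (71.7%, against 69.8%). Pearson's r across members was 0.48 and Spearman's coefficient 0.50, close to 0.47 and 0.52 across all genes, over genes that share the same 4 libraries and are not independent replicates. At 2-fold or more, 7 members were higher in both (Efna3, Ephb6, Ntn4, Sema4g, Sema5a, Sema5b and Sema6b; 11.7%, against 4.8% of all genes). Lower in both were 5, all receptors (Epha3, Ephb2, Plxnb3, Robo2 and Unc5b; 8.33%, against 3.53%). Plxnb3 reached the minimum only through its 36 counts in low-passage DSCs. Genes at or under 3 counts at both passages of a cell type, such as Ntn5 in DPCs, were left out of these counts. The responses differed 4-fold or more between the cell types for 12 members (20.0%, against 7.48% of all genes), namely Robo2, Sema3a, Epha1, Robo1, Sema3c, Sema3d, Sema6b, Sema3b, Sema4f, Slit2, Sema5b and Ntng1. Sema4f likewise reached the minimum only through its 49 counts in low-passage DSCs. Robo1, Sema3a and Sema3c moved at least 2-fold in opposite directions (5.0% of members, against 1.33% of all genes). With 1 library per group the difference was not tested.

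At passage 3 DPCs and DSCs differed 4-fold or more for 6 members (10.0%, against 4.3% of all genes). Sema5b was higher in DPCs by 2.84 (2.11 to 4.17), 1.67% of members against 1.52% of all genes. Lower in DPCs were 5 (8.33%, against 2.77%): Ntn5 by -3.64, Unc5c by -3.15, Sema7a by -2.91, Sema3b by -2.35 and Sema3d by -2.09 on the log2 scale. For Ntn5 the DPC count was 3, with an interval of -6.62 to -2.69, and the gene reached the minimum only through its 61 counts in low-passage DSCs. Ligands thus made up 5 of these 6.

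At passage 9 they did so for 11 members (18.3%, against 6.42%). Higher in DPCs were 3 (5.0%, against 2.5% of all genes), all ligands: Sema5b by 6.50 (6.12 to 7.09), Ntng1 by 4.04 (3.50 to 5.01) and Slit2 by 2.71 (2.65 to 2.78). Lower in DPCs were 8 (13.3%, against 3.91%). They were Robo2 with -3.76, Sema3a with -3.68, Epha1 with -3.58, Sema3c with -2.91, Epha3 with -2.81, Unc5c with -2.05, and Ntn5 and Plxnb3, which had 0 counts in high-passage DPCs and were at least 4.2-fold and at least 2.62-fold lower. The bound for Plxnb3 is below 4-fold, so its place among the 8 and the 11 rests on the fitted value of -2.40. Sema5b, Ntn5 and Unc5c were past 4-fold in the same direction at both passages. Sema3b went from -2.35 (-2.51 to -2.21) at passage 3 to 0.18 (0.10 to 0.27) at passage 9, and Sema3d from -2.09 to -0.05. The median absolute difference between the cell types was 0.53 at passage 3 and 0.88 at passage 9 for members, beside 0.28 and 0.42 over all genes. These comparisons share libraries with those of passage.

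**Figure D5:**
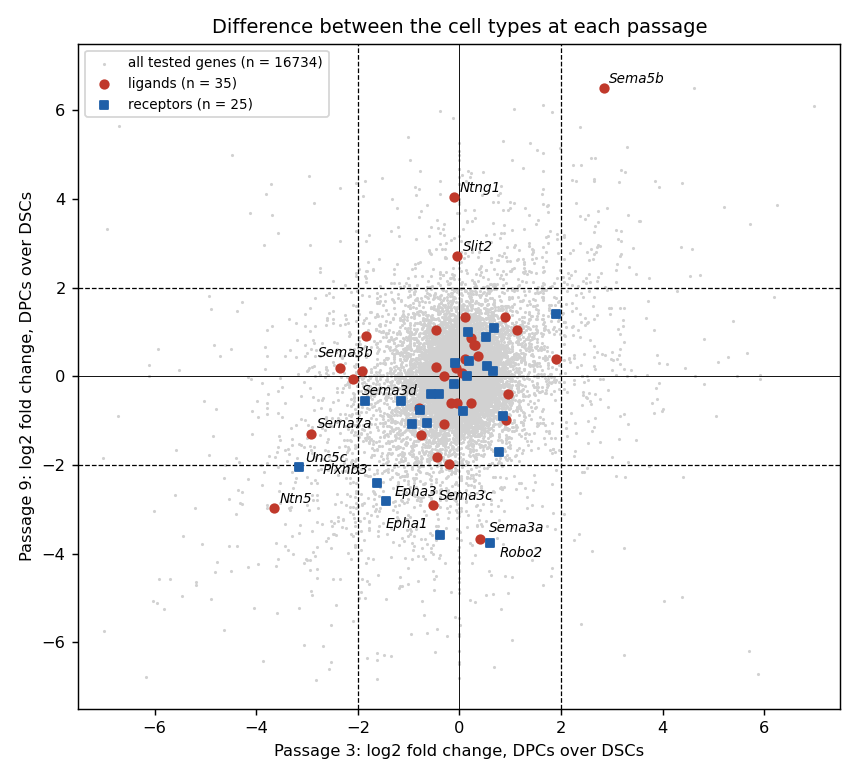
Log2 fold change of DPCs over DSCs at passage 3 (x axis) and at passage 9 (y axis) for the 35 ligands, the 25 receptors and all 16734 genes tested (grey), of which 6 lie outside the axes. Dashed lines mark 4-fold, and Sema5b is the member furthest above 0 at both passages, at 2.84 and 6.50.

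The partners and effectors of the families were read from fixed lists. Over all genes tested, 5.58% rose and 4.36% fell 4-fold in DPCs, and 2.67% rose and 1.16% fell in DSCs. Of 14 partner receptors and ligands tested, 2 rose in DPCs, 1 fell and none passed 4-fold in DSCs, with medians of 0.10 and 0.03. Those that rose were Rgma, a ligand of neogenin, with 552, 2225, 1724 and 1911 counts, and Flrt2, a ligand of Unc5 receptors, with 5910, 24197, 18175 and 39944 counts. The one that fell was Pgf, a growth factor of the VEGF family, with 121, 0, 446 and 190 counts. Of 37 intracellular effectors tested, 4 rose and 0 fell in DPCs, and 1 rose and 1 fell in DSCs, with medians of 0.02 and 0.08. Crmp1, a collapsin response mediator that acts downstream of semaphorins, was the effector that rose in both cell types, by 2.52 in DPCs and 2.22 in DSCs. Chn1, a regulator of Rac downstream of Eph receptors, rose by 2.38 in DPCs, and Vav3, a guanine nucleotide exchange factor, by 2.30. Chn2 fell by 2.70 on the log2 scale in DSCs, from 43 to 6 counts.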

How the data were processed

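RNA was measured by sequencing in 4 libraries, from both cell types at passages 3 and 9. The authors deposited raw counts per gene, which were whole numbers and not normalized, and FPKM values per library, which the authors had scaled for transcript length and depth. Poly-T selection and paired-end reads are described in the study's methods, and the labels name another kit. The submitters' processing notes list Bowtie 0.12.2, mm8 and mm9, but the deposited positions follow GRCm38: 65 of the 72 matched genes had the position of GENCODE M21. The counting program and its use of strand were not given in the sources used here.

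Counts were scaled with TMM in edgeR 4.0.16 (R 4.3.3, limma 3.58.1), and a mean of 10 raw counts over the libraries was required. Log2 fold changes used a prior count of 2. A count of 0 allows 3 counts, so a fold against 0 was computed as a lower bound from 3 counts per library. Intervals and floors cover counting error only. The additive model (cell type and passage, 1 residual degree of freedom) used edgeR's quasi-likelihood test with Benjamini-Hochberg adjustment over all 16734 genes, and DESeq2 1.42.0 was the alternative. Other scalings (DESeq2 size factors, total counts, upper quartile), prior counts of 0.5 and 10, no minimum, a minimum of 100 and the deposited FPKM with a pseudocount of 0.1 were tried. The fits were tested on simulated data. Promoters were RefSeq sequences matched by symbol, chromosome and strand, and 53 members had one. Exon overlap was taken from GENCODE M21. Tables and figures used Python 3.11.15, pandas 2.3.3, scipy 1.17.1 and matplotlib 3.10.9.

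Members and gene lists were chosen with earlier results of these data known. Named were the members past 4-fold in any comparison, the 8 with the highest mean FPKM, the 5 with a mean count of at least 100 and the smallest change with passage, and the genes beside the minimum. Other members were named after their values were seen, as relatives, ligands or receptors of these. An effector gene that was counted is not reported here by name.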

Additional observations from a re-analysis of the deposited data

Results flagged for a closer look

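Robo1, Sema3a and Sema3c stood out because passage moved them in opposite directions in DPCs and DSCs, by at least 2-fold each way and with counting intervals that left out 0. The change in DPCs minus that in DSCs, on the log2 scale, was -2.48 for Robo1, -4.08 for Sema3a and -2.39 for Sema3c. With 1 library per group these differences were not tested.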

How the results depend on the processing

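No paired analysis was possible because each group was 1 library and the labels carry no replicate numbers. Leaving out a library was likewise not possible. With a prior count of 0.5 the members past 4-fold in both cell types went from 1 to 3 (1 higher and 2 lower). The 2 lower were Ntn5 and Plxnb3, which had 0 counts in high-passage DPCs. With no minimum the members past 4-fold in both cell types went to 3, all higher. With a minimum mean count of 100, which leaves 49 members, the members that differed between the cell types went from 6 to 3 at passage 3 and from 11 to 7 at passage 9, and the median change in DPCs from 0.14 to 0.26. The number called by the additive model went from 0 with edgeR to 12 with DESeq2, and the cause was not tested. Across all settings 8 to 15 members were past 4-fold with passage in DPCs and 4 to 9 in DSCs. Called changes that went below 4-fold were Efnb3 in DPCs (1.84 with a prior count of 10, 1.72 with FPKM), Ephb2 in DPCs (just under 4-fold with a minimum of 100, -1.53 with FPKM), Ntn5 in DSCs (-1.62 and -1.78), Plxnb3 in DPCs (-1.04 and -0.54) and Sema4f in DSCs (-1.79 with FPKM), the pairs being for a prior count of 10 and for FPKM. No called change with passage of a named member changed sign under any of these settings, and the named differences between DPCs and DSCs were not followed gene by gene. Depth limits Ntn5, Plxnb3, Sema4f, Sema4a and Ntng1, which had under 10 counts in a library.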
